A study of Homo sapiens with 6 samples.

Results

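The 4 human NDRG genes, NDRG1, NDRG2, NDRG3 and NDRG4, were described from the transcript models of a merged RNA-seq assembly from a line of human beta cells, EndoC-βH1. They were found by gene name, and are 4 of the 25211 gene names in the assembly. Together they held 49 of its 55083 models. Of the 49, 29 were reference transcripts, that is, exact matches to a RefSeq transcript. The other 20 were joined models, which share splice junctions with a RefSeq transcript of the gene but have a chain of introns that RefSeq lacks. NDRG2 was chosen by its number of joined models in this same assembly, 19, so that number is a description and is not tested. The other 3 genes were taken as its family.

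A lentivirus had brought into the cells a short hairpin RNA that is directed at the insulin gene promoter and that doxycycline switches on. In 3 libraries the hairpin was induced with doxycycline at 1 mg/mL for 7 days, and 3 negative control libraries had no doxycycline. The labels list no group that had doxycycline without the hairpin, so the drug and the hairpin cannot be told apart. Template switching turned 10 ng of total RNA per library into full-length cDNA, which a transposase then cut. The 6 libraries share 1 assembly that carries no abundance, so the level of an NDRG gene in any library, the difference between the groups, the insulin level and the beta cell markers were not analysed here. Depth is unknown, and no value below has a replicate. Reference transcripts can be listed without being expressed, and the presence of a joined model in the merged file does not show in which library it arose.

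The NDRG genes are named for N-Myc downstream-regulated gene 1, which is repressed by the Myc proteins and induced by hypoxia and other stress. Their proteins have the alpha/beta hydrolase fold but lack the residues that make that fold an enzyme, and none has a known enzymatic activity. NDRG1 is phosphorylated by the kinases SGK1 and GSK3 and has been linked to vesicle traffic and to the suppression of metastasis. NDRG2 is abundant in brain, where astrocytes express it, and is found in muscle and heart. NDRG3 is known as a lactate-binding protein that accumulates in hypoxia, and NDRG4 is expressed mainly in brain and heart. Alternative promoters and short in-frame exons give several of these genes more than 1 protein.

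The 4 genes shared one exon plan. In the RefSeq transcript with the longest reading frame of each gene, 12 consecutive internal coding exons could be set side by side, and 11 of them had the same length in all 4 genes. The lengths were 106, 121, 63, 61, 87, 57 and 104 bases, then an exon of 57 bases in NDRG1, 45 in NDRG2, 66 in NDRG3 and 57 in NDRG4, and then 52, 48, 36 and 52 bases. All 12 began at the same codon position in the 4 genes. Among all RefSeq models of the assembly, the run of the first 7 lengths, 599 bases in all, occurred in these 4 genes and in no other. So did the run of the last 4. Within the 11 exons of equal length, 127 of 263 residues (48.3%) were identical in all 4 proteins. Identity was lowest in the sixth exon, at 21.1%, and highest in the twelfth, at 77.8%.

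**Figure D1:**
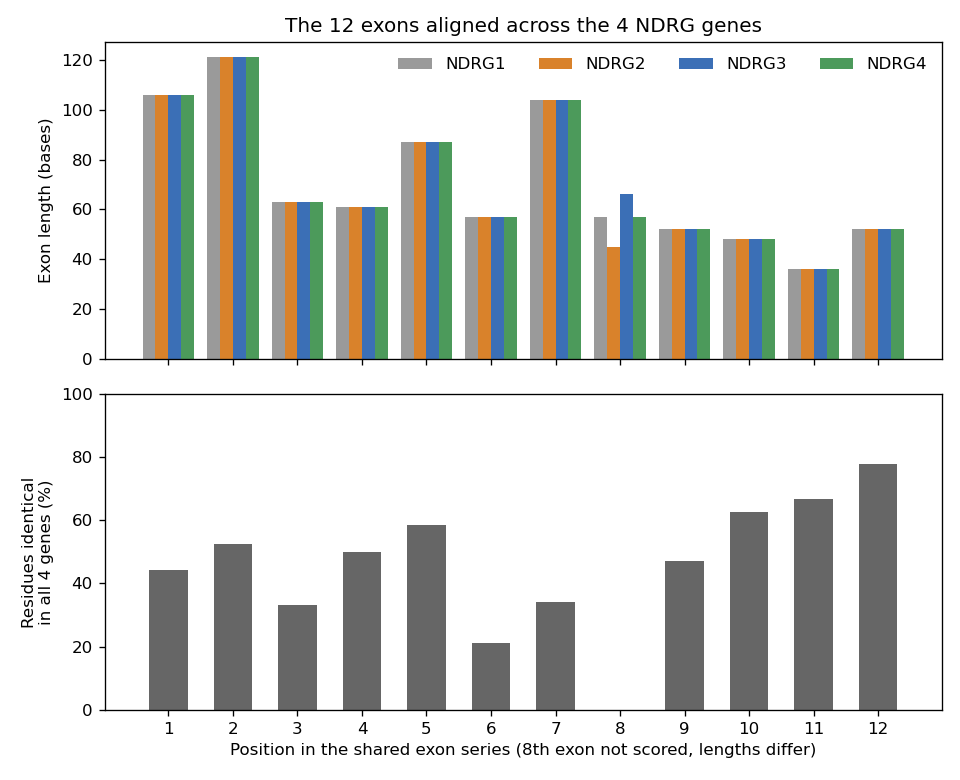
The 12 exons of the shared series in order along the horizontal axis, with the length in bases in each gene above and the percent of residues identical in all 4 genes below. The bars of a position are level everywhere except at the eighth exon (57, 45, 66 and 57 bases), which was therefore not scored, and identity runs from 21.1% at the sixth exon to 77.8% at the twelfth.

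Over whole proteins, NDRG1 and NDRG3 were the closest pair, with 66% of aligned residues identical. NDRG2 and NDRG4 followed with 65.1%, then NDRG3 and NDRG4 with 64.6% and NDRG1 and NDRG4 with 61.8%. NDRG2 was identical to NDRG3 at 59.6% and to NDRG1 at 57.6%. The proteins differed mainly in length outside the 12 exons. After them, NDRG1 had 79 residues, NDRG3 59, NDRG2 54 and NDRG4 50, and the NDRG1 tail carried a stretch of 10 residues in 3 copies, while no 10 residues were repeated in the other 3 proteins. Before them, NDRG4 had 59 residues, against 39 in NDRG2, 33 in NDRG1 and 31 in NDRG3.

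The exon just before the series differed in length between the genes and was absent from some RefSeq models of each. It measured 36 bases in NDRG1 and NDRG3, 42 in NDRG2 and 45 in NDRG4, each a whole number of codons (12, 12, 14 and 15). It was in 3 of 4 RefSeq models of NDRG1, 5 of 14 of NDRG2, 2 of 3 of NDRG3 and 3 of 8 of NDRG4. It is shown here, on hg19 and from RefSeq exon boundaries, for the 3 genes whose sequence is printed, because its use or omission is what separates the principal proteins of NDRG2 and NDRG3. The exon is in capitals and the 10 intron bases on each side are in lower case. The positions are chr14:21491013-21491074 on the minus strand, chr20:35335365-35335420 on the minus strand and chr16:58528858-58528922 on the plus strand.
NDRG2 42-base exon: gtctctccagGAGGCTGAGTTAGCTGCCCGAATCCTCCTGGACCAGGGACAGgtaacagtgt
NDRG3 36-base exon: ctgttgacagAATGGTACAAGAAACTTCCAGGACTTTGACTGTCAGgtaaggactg
NDRG4 45-base exon: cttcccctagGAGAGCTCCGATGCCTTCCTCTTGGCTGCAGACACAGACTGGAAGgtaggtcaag

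NDRG1 (chr8:134249414-134309547, minus strand, 60134 bases) had 4 RefSeq models and no joined model. All 4 began at 134309547 and ended in the same last exon of 1949 bases. The first exon had 2 forms, of 171 bases in 3 models and 568 bases in 1, which differ in the donor. In 1 model the 81-base exon with the usual start codon and the 36-base exon were both left out, and in another the 106-base exon was left out. The longest frame was 394 amino acids in 2 models, 328 in the model without the 81- and 36-base exons and 313 in the model without the 106-base exon. The file gave the 4 models 1 start site group and 3 protein identifiers (p_id, the tag by which the authors' software groups models of 1 coding sequence).

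NDRG3 (chr20:35280169-35374541, minus strand, 94373 bases), the longest of the 4 genes, also had no joined model. Its 3 RefSeq models shared 1 first exon of 94 bases and 1 last exon of 1936 bases. The 2 coding models differed in the 36-base exon alone, with frames of 375 and 363 amino acids. The model with a non-coding accession left out the 106- and 121-base exons together, and its longest frame was 283 amino acids. Its start site group was single and it had 2 protein identifiers.

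NDRG4 (chr16:58497549-58547523, plus strand, 49975 bases) had 8 RefSeq models and 1 joined model. It used 4 first exons, of 153, 378, 250 and 127 bases, each in a start site group of its own, with starts at 58497549, 58497994, 58498726 and 58534047. The first 3 lie within the 5′ end of the gene, and each was used by 1 RefSeq model. The fourth lies 35321 bases further on and was used by 5. Models from the 3 upstream starts carried the 45-base exon and models from the downstream start did not. Their longest frames were 391 amino acids from the 378-base first exon and 371 from the 153- and 250-base first exons. From the downstream start they were 369, 357, 352 and 339 amino acids in the 4 coding models, and 284 in the model with a non-coding accession. The models of the downstream start differed in a 90-base exon and in a 39-base exon near the 3′ end. They also differed in acceptors 38 and 54 bases apart before the 106-base exon. Each of these exons and longer forms was in 1 RefSeq model.

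Both genes with joined models, NDRG2 and NDRG4, make 2 of the 4 members, where 12.4% of all gene names with a multi-exon RefSeq transcript (2677 of 21516) had at least 1. That share depends on how many RefSeq transcripts a gene has. It was 33.8% among genes with 3, as NDRG3 has, 45% among genes with 4, as NDRG1 has, and 64.8% among genes with 8, as NDRG4 has. Of the 63 genes with 12 to 16, around the 14 of NDRG2, 74.6% had a joined model. Their number of joined models ran from 0 to 19 with a median of 1, and NDRG2 was the gene at 19 (1.59% of the 63). Over all gene names, 0.0511% had 19 or more (11 of 21516), and on chromosomes 1 to 22, X and Y it was 0.014% (3 of 21490). UTY, with 77 RefSeq transcripts, had the same number, and just under it ATXN3, with 31, had 17. Nothing is concluded from this number, which chose the gene.

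**Figure D2:**
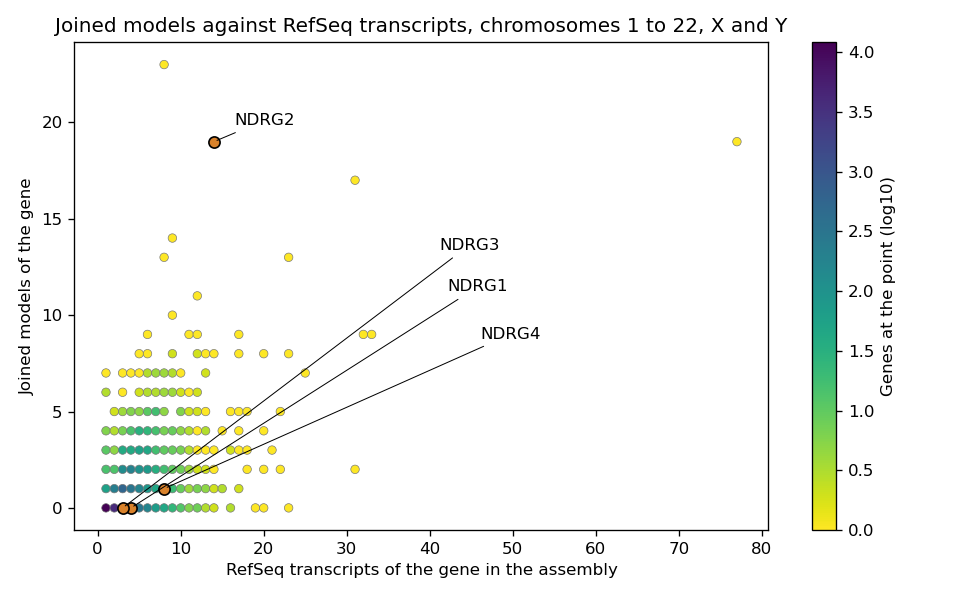
Joined models (vertical axis) against RefSeq transcripts (horizontal axis) for each gene name on chromosomes 1 to 22, X and Y, coloured by the log10 number of genes at the point, with the 4 NDRG genes marked in orange. NDRG2 sits at 14 RefSeq transcripts and 19 joined models, and NDRG1, NDRG3 and NDRG4 lie near the bottom left at 0, 0 and 1 joined models.

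The joined model of NDRG4 began with the 250-base first exon and continued with the 45-base exon, as in a RefSeq model, but also contained the 39-base exon near the 3′ end. In RefSeq that exon was in 1 of the 8 models, one that begins at the downstream start. The exon holds 13 codons, and the frame of the joined model was 384 amino acids against 371 for the RefSeq model with the same first exon. It is printed because it is what sets the joined model apart from that RefSeq model, at chr16:58544539-58544597 on the plus strand with the exon in capitals.
NDRG4 39-base exon: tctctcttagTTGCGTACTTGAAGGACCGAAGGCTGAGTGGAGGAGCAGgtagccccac

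NDRG2 (chr14:21484922-21539031, minus strand, 54110 bases) had 33 models with 15 to 17 exons and 1908 to 2330 spliced bases. They drew on 27 distinct exons, and all 33 ended in the same last exon of 1000 bases. They began at 5 positions, which the file sorted into 4 start site groups. The position 21493935 served 5 RefSeq and 7 joined models, and 21493264 served 6 RefSeq and 10 joined models. The starts at 21493804 and 21493185 served 1 RefSeq model each and no joined model. The distal start at 21539031 served 1 RefSeq and 2 joined models.

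The 4 closely spaced starts lay 1711 to 2461 bases before the start codon that most models share (21491474), and the distal start 47557 bases before it. The intron after the distal first exon was 47506 bases long and held the whole of 4 other genes. These are TPPP2, a member of the tubulin polymerization-promoting protein family, and the ribonuclease family genes RNASE13, RNASE7 and RNASE8. The distal first exon itself lay inside ARHGEF40, a gene on the opposite strand. The sources do not say whether the libraries kept strand. The microRNA gene MIR6717 (21491473 to 21491545, same strand) reached from the intron before the shared start codon into that codon.

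**Figure D3:**
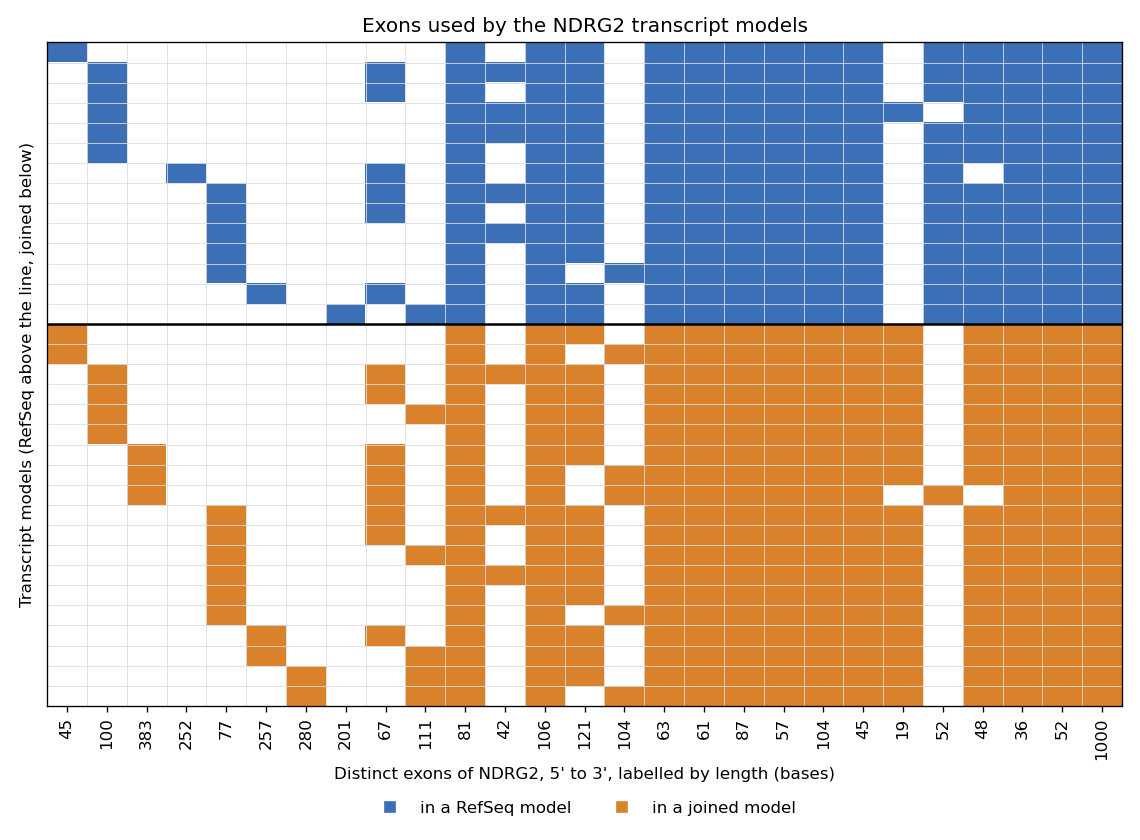
Exon use in the 33 NDRG2 models, 1 row per model, with the 14 RefSeq models above the line in blue and the 19 joined models below in orange. Columns are the 27 distinct exons from 5′ to 3′, labelled by length in bases. The joined rows fill the 19-base column in 18 of 19 cases, and the RefSeq rows fill the 52-base column in 13 of 14. Joined models are by definition chains that RefSeq lacks and the models are not replicates, so these counts are a description.

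Besides the first exons, NDRG2 models differed at a few places. Between the first exons and the start codon lay an exon of 67 bases, in 6 RefSeq and 8 joined models, or its longer form of 111 bases, in 1 RefSeq and 5 joined models. The 42-base exon was in 5 of 14 RefSeq and 3 of 19 joined models. The 121-base exon, the second of the shared series, had an alternative acceptor 17 bases further in, which leaves 104 bases. The 104-base form was in 1 RefSeq and 5 joined models. The 52-base exon, the ninth of the series, had an alternative donor 33 bases earlier, which leaves 19 bases. The 19-base form was in 1 of 14 RefSeq models and in 18 of 19 joined models, and the 52-base form in 13 and 1. The 48-base exon that follows it was missing from 1 RefSeq and 1 joined model.

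The sequences at these 3 places are printed because the coding part of NDRG2 varied there among the models. The 48-base exon was used almost alike in RefSeq and joined models. All are on the minus strand of hg19 chromosome 14, and capitals mark the bases that only the longer form, or the model with the exon, contains. The first (chr14:21486912-21486973) shows the 19 bases kept in both forms, the 33 bases between the donors and 10 intron bases. The next (chr14:21490315-21490361) shows the end of the intron, the 17 bases between the acceptors and 10 bases of exon. The last (chr14:21486606-21486673) is the 48-base exon between 10 intron bases on each side.
NDRG2 33-base stretch between the donors: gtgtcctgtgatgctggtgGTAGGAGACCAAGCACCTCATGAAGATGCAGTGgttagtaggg
NDRG2 17-base stretch between the acceptors: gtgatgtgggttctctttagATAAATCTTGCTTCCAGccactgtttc
NDRG2 48-base exon: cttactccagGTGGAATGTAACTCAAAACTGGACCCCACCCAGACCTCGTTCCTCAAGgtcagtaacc

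The 33 bases begin with GT, the letters of a donor, and hold 11 codons. The 42- and 48-base exons hold 14 and 16 codons, so inclusion of these 3 pieces leaves the downstream frame unchanged. The 17 bases are no whole number of codons. They shift the downstream frame when they are left out.

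Every intron of the joined NDRG2 models was already in RefSeq. The gene had 28 distinct introns, all 28 were in RefSeq and in GENCODE, and the joined models added none. What RefSeq lacked was their combination, by the definition of a joined model. GENCODE was not used to define them, and it contained 13 of the 14 RefSeq chains and 0 of the 19 joined chains. Added introns and GENCODE chains were not counted over the joined models of all genes. The lack of either is therefore not called particular to NDRG2. Each joined chain was split into the fewest consecutive runs of introns that each come from 1 RefSeq model. In 12 joined models 2 runs sufficed and in 7 models 3 were needed, and the joined model of NDRG4 needed 2.

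All 33 models contained an 81-base exon (21491400 to 21491480) that holds the shared start codon. Introns before it occurred in 11 combinations, counted as the 5′ part, and introns after it in 8, counted as the remainder. RefSeq had 8 of the 5′ parts and 5 of the remainders, and 3 of each occurred in joined models alone. Those 3 5′ parts each occurred as a run of introns in a GENCODE transcript of NDRG2, and those 3 remainders did not. Of the 88 possible pairs, 33 were present (37.5%), 14 as RefSeq and 19 as joined models. Of the 19 joined models, 16 had a RefSeq 5′ part and 3 a RefSeq remainder, 3 had both and 3 had neither.

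One remainder ran through the whole set. It has no 42-base exon, the 121-base form, the 19-base form and the 48-base exon. It was in no RefSeq model, and it was attached to all 11 of the 5′ parts, each time in a joined model. The remainder with the 104- and the 19-base forms was attached to 4 of the 5′ parts, all in joined models. The remainder with the 42-base exon and the 19-base form was in 1 RefSeq and 3 joined models. The other joined model had the 104-base form, the 52-base form and no 48-base exon.

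**Figure D4:**
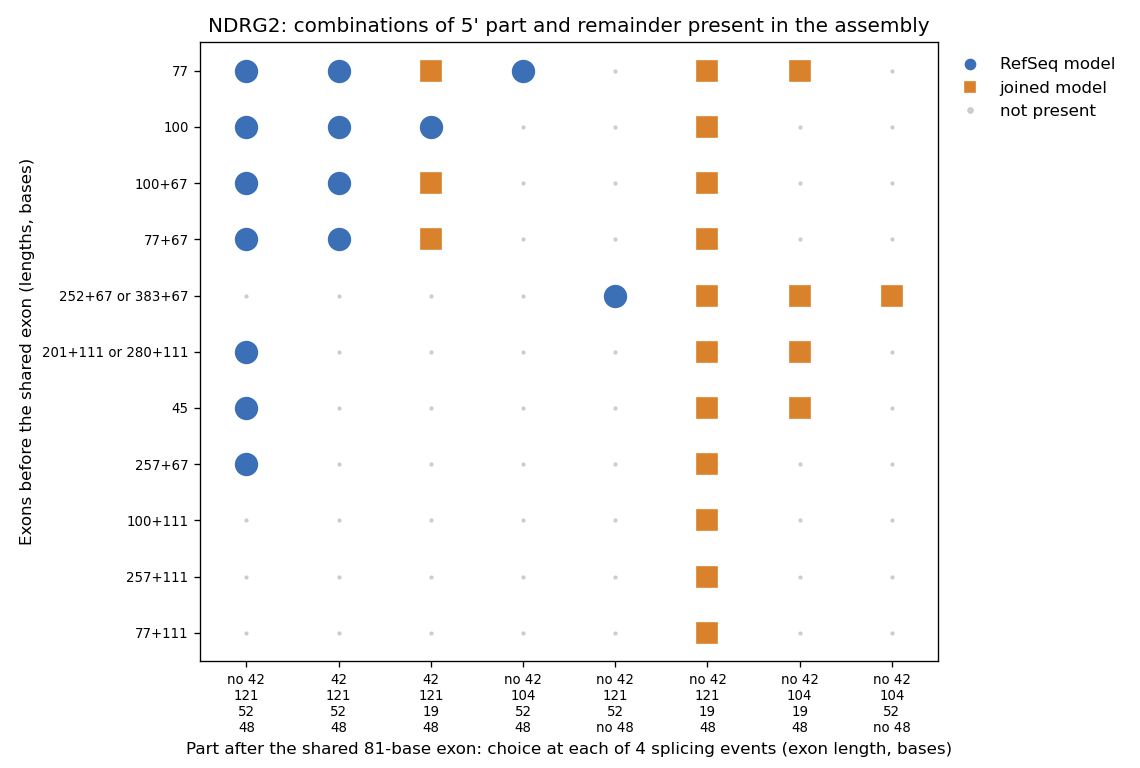
Combinations of the exons before the shared 81-base exon of NDRG2 (rows, exon lengths in bases) with the form of the chain after it (columns, the choice at each of 4 splicing events). Blue circles are RefSeq models, orange squares are joined models and grey dots are combinations not present. The column with no 42-base exon, the 121-base form, the 19-base form and the 48-base exon is orange in all 11 rows.

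The intron that joins the 52-base form to the 48-base exon (21486664 to 21486921) was in 12 of 14 RefSeq models. It was singled out because no joined model (0 of 19) had it, so its pairs could be in RefSeq alone. It is part of 3 remainders, which with the 11 5′ parts gives 33 possible pairs. Of these, 12 were present, all in RefSeq, and 21 were absent. The intron of the 19-base form (21486664 to 21486954) was taken as the one, of those in a single RefSeq model, that most joined models had. It also gives 33 possible pairs, of which 19 were present, 1 in RefSeq and 18 as joined models. The 1 and the 18 reflect that choice, so these counts are not a contrast with those of the other intron. Of the 28 NDRG2 introns, 8 were held by a single RefSeq model, and all 8 recurred in joined models. At least 1 of them was in each of the 19 joined models and in 6 of the 14 RefSeq models. Since each of the 8 was picked as held by 1 RefSeq model, at most 8 of the 14 could hold any. The joined models had no such limit, so the 19 and the 6 are not a contrast either.

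The joined models of NDRG2 were also set beside those of all genes by their first exons. In 5 of the 19 joined models (26.3%) the first exon was not an exon of RefSeq, against 536 of 5237 joined models of all genes (10.2%). In 3 of the 5 it measured 383 bases and ran from the start of the 100-base RefSeq first exon to the donor of the 252-base one. In the other 2 it measured 280 bases and ran from the start of the 77-base first exon to the donor of the 201-base one. These 5 starts were RefSeq starts, as were 328 of the 536 over all genes, and both donors were RefSeq donors. The 5 models repeat the 383- and the 280-base exon, so they are not 5 separate cases.

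The 9 genes on chromosomes 1 to 22, X and Y with at least 10 joined models were set side by side. For each gene the intron was taken that is held by 1 RefSeq model and shared by the most joined models. In NDRG2 it is the intron of the 19-base form, in 94.7% of the joined models. PLEKHG5 reached 100% and FOXP1 90%, and the 9 genes had a median of 65.2% and a lowest value of 11.8%. The intron was picked by the joined models themselves, and the share divides by their number, which chose NDRG2. The place of NDRG2 among the 9 is therefore a description. NDRG2 also had 0.316 distinct longest frames per joined model, the lowest of these 9 genes, whose median was 0.846. That ratio divides by the number of joined models, by which NDRG2 was chosen, so its low rank is not a separate result. The number of frames itself, 6 in NDRG2, was 6 in FOXP1 and 5 in PLEKHG5. Gene names on other sequences of hg19 were not part of this comparison. The genes nearest to NDRG2 by the summed difference in numbers of RefSeq transcripts and joined models were ANKS1B (12 and 11), SORBS2 (9 and 14), TSNAX-DISC1 (8 and 23), CDKN2B-AS1 (14 and 8) and ATF2 (13 and 8), over 1 assembly. PLEKHG5 (8 and 13) and TCF4 (12 and 9) were as near as ATF2, at a summed difference of 12, and came after it only by the alphabetical rule for ties.

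The 19 joined models of NDRG2 encoded 6 distinct longest reading frames, and all models of the gene ended at 1 stop codon (21485755). RefSeq models had frames of 371 amino acids in 4 models, 357 in 6, and 367, 360, 341 and 311 in 1 each. The 371- and 357-residue frames differ by the 42-base exon. Of the joined models, 10 had a frame of 346 amino acids and 3 a frame of 360. The 346-residue frame is the 357-residue one without the 33 bases between the donors, and the 360-residue frame stands in the same relation to the 371-residue one. The 360-residue frame was the only joined frame found in RefSeq or GENCODE.

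The remaining frames came from the 104-base form or the distal start. Read from the shared start codon, the 5 joined models and the RefSeq model with the 104-base form all reached a stop after 137 amino acids, which lay over 50 bases before the final junction. Their longest frame began instead at 21490610, in the 106-base exon, in 4 of the joined models and in the RefSeq model. It measured 300 amino acids in 3 joined models, 295 in 1 and 311 in the RefSeq model. The stop of the longest frame was not early by that rule in any of the 20 joined models of the family.

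The distal first exon is printed from its first start codon to its end (chr14:21538987-21539010, minus strand), since the 3 models that use it start translation there in their longest frames. Capitals mark each ATG that opens a longest frame, and a further ATG near the end of the exon is left in lower case.
NDRG2 distal first exon from its start codon: ATGgaaaATGgtggttccatgcag
The ATG at 21539010 opened the frame of 367 amino acids of the RefSeq model and one of 356 in the joined model with the 121-base form. In the joined model with the 104-base form, the longest frame began at the ATG at 21539003 instead and measured 348 amino acids. The ATGs in capitals lie 7 bases apart and so in different frames. In that model the reading frame differed from the RefSeq one before the alternative acceptor, and it ended at the shared stop.

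**Figure D5:**
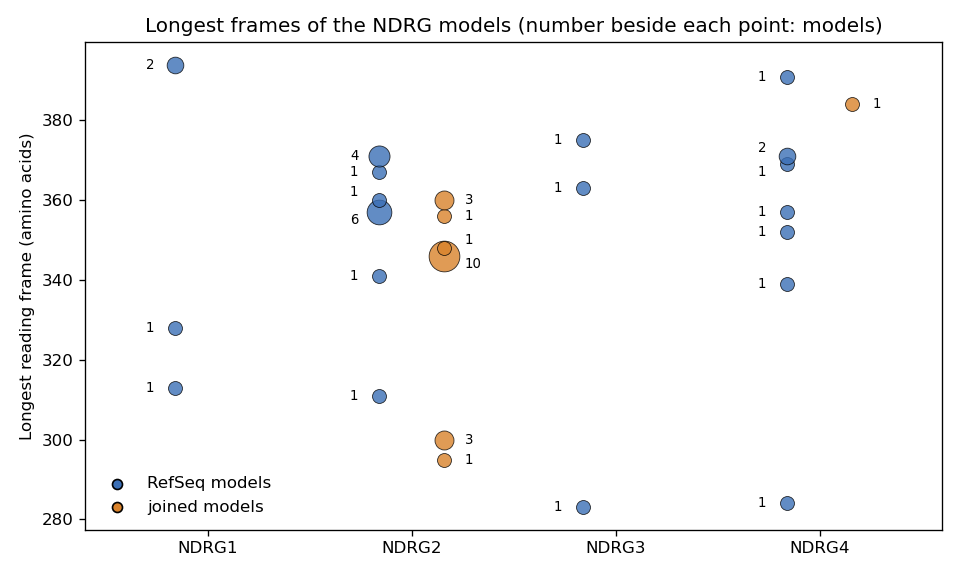
Length in amino acids of the longest reading frame of each NDRG model, by gene, with RefSeq models in blue and joined models in orange, and the number of models beside each point (the vertical axis starts at 280). The joined NDRG2 models gather at 346 with 10 models, below the RefSeq points at 357 and 371, and the joined NDRG4 model lies at 384.

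All 19 joined frames of NDRG2 were shorter than that of the RefSeq model the file tags as nearest, which has 371 amino acids and is the same for all 19. Against the RefSeq model with the most introns in common, 17 were shorter, 1 was equal and 1 longer. The joined model of NDRG4 was shorter than its tagged model and longer than the one with the most introns in common. The file gave protein identifiers to RefSeq models alone, 6 in NDRG2 and 6 in NDRG4, and none of the 20 joined models carries one. A value summed by start site group in this assembly would add the joined NDRG2 models to the RefSeq models of the same start, and one summed by protein identifier would leave them out.

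Joined models were also counted in 2 lists of related genes. Of 17 regulators, kinases and partners of the NDRG proteins, 2 (11.8%) had any, beside the 12.4% of all genes, and the median was 0 in the list and over all genes. They were ARNT, the partner of the hypoxia-inducible factors, with 5, and HIF1A, a hypoxia-inducible factor, with 1. SGK1, GSK3A, GSK3B, MYC, MYCN and VHL had 0. Of 26 genes of the alpha/beta hydrolase fold with a multi-exon RefSeq transcript, 2 (7.69%) had any, with a median of 0. These were MEST, an imprinted gene, with 2 and ABHD11, a mitochondrial hydrolase, with 1. The lists had medians of 3 and 2 RefSeq transcripts per gene, and 6 and 11 of their genes had a single one, so these shares were not compared at a matched number of transcripts.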

How the data were processed

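The 6 libraries, 3 per group by sample title, were not compared, because the file holds no value per library. It is 1 merged transcript assembly deposited by the authors. The deposited values are positions in bases, the start and the end of each exon with the first base as 1, and the score column is empty in all 555595 exon lines. The submitters' processing notes name the build hg19 and the tools TopHat2 and Cufflinks. Their versions and settings, and any filters, are not stated there. The planned limma test on FPKM was therefore not run.

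Models were rebuilt with Python 3.11.15, Biopython 1.88, pysam 0.24.0, scipy 1.17.1 and numpy 2.4.6, and the scripts were tested on simulated models. Figures were drawn with matplotlib 3.10.9. Reading frames run from ATG to stop on the spliced GRCh37 sequence, the assembly of hg19. GENCODE release 44, mapped to that build, was searched for identical intron chains. A cassette exon lies inside an intron of another model of the gene. Proteins were aligned pairwise with BLOSUM62. Every NDRG model was described, with the genes at 17 to 21 joined models, the 5 most like NDRG2 in numbers of RefSeq and joined models, and up to 3 members of each list with the most joined models. The members and lists were chosen with earlier results of these data known. Alternatives are given in the closing section.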

Additional observations from a re-analysis of the deposited data

How the results depend on the processing

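Of 59 values under an alternative definition, 52 stayed within 1.5 times the value reported, or, for the share of gene names that have joined models, within its exact 95% interval of 12 to 12.9%, and 7 moved. Counting first exons by start position alone, an alternative chosen after seeing the data, gave 1 in NDRG1 in place of 2 and 5 in NDRG2 in place of 8. The strict definition of a cassette exon, with an intron running exactly across it, gave 1 in place of 3 in NDRG1 and in NDRG3. Distinct longest frames in place of protein identifiers gave 11 in NDRG2 in place of 6. With the RefSeq model that shares the most introns as the reference, 0 joined frames of NDRG4 were shorter in place of 1. Over genes with a RefSeq transcript of 3 or more exons, 13.5% had a joined model in place of 12.4%. The numbers of joined models and the spans were among the values that did not move. The other alternatives chosen after seeing the data were a minimum model length of 200 bases for the share, and frames of reference models alone. The frame from the main start codon gave no value for NDRG4, whose joined model lacks that ATG. No paired analysis was possible because the file holds no value per library, and the fits that leave out a replicate or change the pseudocount were not run for the same reason. With depth unknown, the absence of a joined model in NDRG1 and NDRG3 is not evidence that other isoforms were absent from the cells.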

Other observations

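The start regions of the NDRG genes differed in base composition. In windows from 250 bases before to 50 bases after each start (30958 such RefSeq windows in all, with a median GC content of 59.3% and a median observed to expected CpG ratio of 0.642), all 11 NDRG starts had more GC than that median, from 63% to 81.7%. The CpG ratio was 0.843 at NDRG1 and 1.02 at NDRG3. At NDRG4 it was 1.01 and 1.04 at the first starts of the gene, 0.572 at the start of the joined model and 0.235 at the downstream start. At the clustered NDRG2 starts it ran from 0.559 to 0.71, and at the distal start it was 0.267. The Myc-binding E-box CACGTG, which reads the same on both strands, was in none of the 11 windows and in 7.77% of all windows. That says only that these letters are not in these windows.

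Splice sites were scored against the base frequencies of all RefSeq sites in the assembly, in bits, with medians of 8.23 over 202354 donors and 9.47 over 200419 acceptors. Both donors of the ninth shared exon of NDRG2 scored below the median, 5.73 for the 19-base form (percentile 17.2) and 5.35 for the 52-base form (percentile 13.8). Both acceptors of the second shared exon did too, at 4.82 for the 104-base form (percentile 9.99) and 5.46 for the 121-base form (percentile 13.2). Such scores were not particular to alternative sites, since donors used in all 33 models scored as low as 4.32 and acceptors used in all 33 as low as 3.49. The 42-base exon had an acceptor of 9.42 and a donor of 7.7. The donor that the 252-base first exon shares with the 383-base first exon of 3 joined models scored 1.22 (percentile 0.731), the lowest of the NDRG2 donors.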
